A study of Homo sapiens with 12 samples.

Results

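Transcript levels in K562 cells after 24 h of dasatinib were compared with those after 8 h of the same drug. K562 is a human line from chronic myeloid leukaemia that carries the BCR-ABL1 fusion kinase, and dasatinib inhibits ABL and the SRC family kinases. The comparison takes 6 of the study's 12 arrays by their titles, 3 at each time, and covers all genes. Both groups received 100 nM dasatinib. The remaining arrays held cells after 4 h of the drug or after 24 h of 0.2% DMSO, the vehicle. Per the labels, cultures were kept in 10% fetal bovine serum until the treatment, which was done in medium with 0.1% serum. The vehicle was harvested at 24 h alone, so a longer exposure to the drug and a longer time in low serum cannot be told apart. All arrays come from 1 cell line, and whether those of 1 group stem from independent cultures is not stated in the labels. The p-values therefore cover the spread among these samples alone, which may be technical.

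As background, BCR-ABL1 drives the RAS-ERK, STAT5 and PI3K pathways, which keep K562 cells growing and hold back an erythroid programme that these cells can enter. In cells that lose this drive, FOXO factors become active and the synthesis of ribosomes, which depends on MYC, slows down. Erythroid maturation begins with globins and haem enzymes, goes on to the proteins of the red cell membrane, and ends with the shutdown of growth and the clearance of organelles.

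The 6 arrays had median raw signals of 134 to 151, and each detected 18005 to 18592 of 47314 probes. Over the 10208 tested genes, not independent of each other, arrays of the same time correlated at a Pearson r of 0.991 to 0.992 and arrays of different times at 0.963 to 0.971. A level is a log2 normalized intensity, with the arrays of a group named A, B and C, and a change is the log2 fold change at 24 h relative to 8 h. A gene was called higher or lower when its adjusted p was under 0.05 in the limma fit. Every adjusted p given for a gene below is that of limma with Benjamini-Hochberg adjustment over the 10208 genes. The median SD among 3 arrays was 0.14 at 8 h and 0.143 at 24 h. Array C of the 8 h group read lower than arrays A and B on several erythroid genes. For ALAS2, AHSP and CA1 array C was also the lowest in DMSO and at 4 h. Counts are also given without array C of the 8 h group where they move by more than 1.5 times.

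Between 8 h and 24 h, 3647 of 10208 genes (35.7%) were called. Of these, 1784 (17.5% of all genes) were higher at 24 h and 1863 (18.3%) were lower. At a change of at least 2-fold the balance was different, with 325 genes higher (3.18%) and 164 lower (1.61%), or 4.79% in all. The 3 arrays of one time did not overlap the 3 of the other for 5044 genes (49.4%). The median change over all genes was -0.01. This balance rests on quantile normalization. Scaling each array to its median over all probes moved the median of all genes to 0.10 and gave 1624 genes higher and 570 lower, so that 74.0% of calls were higher where the quantile-normalized values gave 48.9%. Scaling to the median of the passing probes instead moved it to -0.07 and gave 1445 higher and 2227 lower, with 39.35% of calls higher. Changes in the following are relative to the median gene, and the counts of lower genes in a list are given with those under median scaling where these fall by more than 1.5 times.

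**Figure D1:**
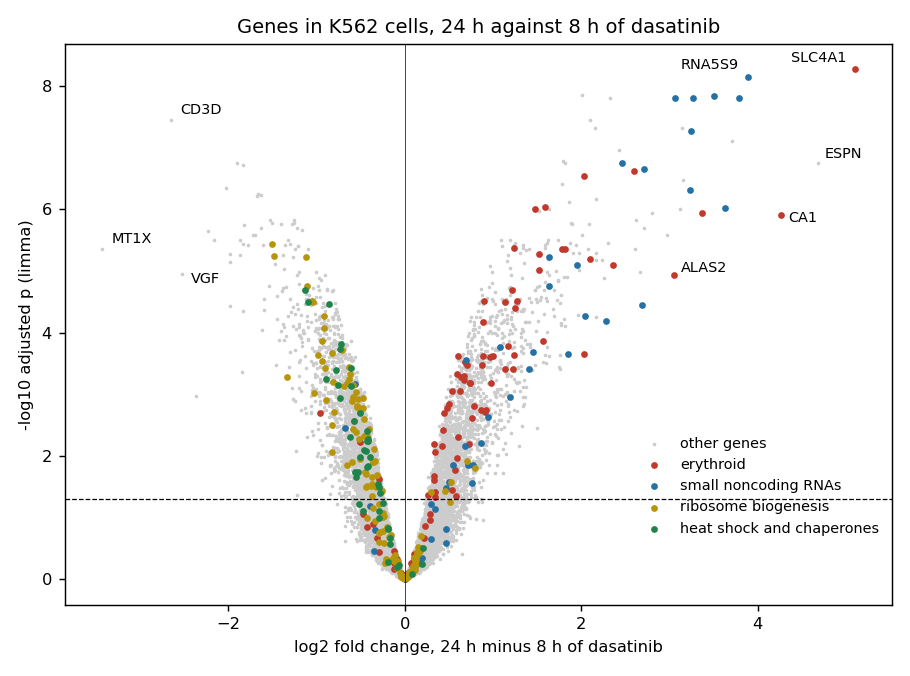
Change of each of the 10208 genes (x axis, log2 fold change at 24 h relative to 8 h) against -log10 of its adjusted p (y axis, limma). Each point is 1 gene, the dashed line marks an adjusted p of 0.05, and 4 gene lists are coloured. SLC4A1, ESPN and CA1 lie farthest to the right, small noncoding RNAs form a group near the top right, and MT1X and CD3D lie farthest to the left.

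Proteins of the red cell membrane, haem enzymes and other erythroid proteins were higher at 24 h than at 8 h, with the largest single rise in the anion exchanger of red cells. Of 119 listed erythroid genes 96 were measured, and 66 of them rose and 3 fell (58 and 2 when array C of the 8 h group was left out), where 17.5% and 18.3% of all genes did. The median change of the list was 0.60. The mean level of the list was 9.56, 9.55 and 9.45 on the 8 h arrays and 10.30, 10.26 and 10.26 on the 24 h arrays. It had been 9.14 to 9.22 at 4 h. Every 24 h array therefore lay above every earlier one. The list median of the change from 4 h to 8 h, which uses the same 8 h arrays, was 0.31. In RNA from a whole culture, more erythroid cells and more erythroid RNA per cell cannot be told apart.

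The membrane and its skeleton showed the largest median of the erythroid groups, 1.14, with 17 of 19 measured members higher and 1 lower. This rank rests on the setting. Without background correction the median was 0.724, and that of haem synthesis 0.892. In the authors' value table the 2 medians were 0.637 and 0.858. SLC4A1, band 3, the chloride and bicarbonate exchanger that is the main protein of the red cell membrane, was at 4.85, 5.13 and 4.78 at 8 h, below background on all 3 arrays, and at 10.16, 9.67 and 10.24 at 24 h. It was at least 27.5-fold higher (adjusted p = 5.4e-09), and its means at 4 h and in DMSO were 4.88 and 4.58. The jump therefore fell between 8 h and 24 h. EPB42, protein 4.2, which links band 3 to the skeleton, was at 6.60, 6.92 and 5.79 at 8 h and at 9.76, 9.96 and 9.70 at 24 h, a change of 3.37 (SE 0.23, adjusted p = 1.1e-06). The 2 groups of EPB42 values lay far apart, with array C of the 8 h group the lowest. Arrays that did not overlap were required of the 15 largest rises, which include EPB42. The blood group genes RHCE and RHD, near-identical copies that probes may not separate fully, rose by 2.60 and 2.36. The Kell antigen gene KEL rose by 1.78 and DMTN, dematin of the actin junctions, by 2.10. ADD2, beta adducin, was the member that fell, by 0.29 (1.22-fold, SE 0.09, adjusted p = 0.023), a call lost under median scaling and when array C of the 8 h group was left out.

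Haem synthesis followed, with 11 of 14 measured genes higher, 0 lower and a median of 0.93. ALAS2, the erythroid enzyme that makes the first haem precursor, was at 10.81, 10.57 and 9.99 at 8 h and at 13.72, 13.41 and 13.40 at 24 h. Its change was 3.05 (SE 0.28, adjusted p = 1.2e-05), and its 2 other probes gave changes from 1.61 to 3.05. All 24 h values of ALAS2 lay above all 8 h values, and 49.4% of all genes had no overlap in either direction. SLC25A37, the mitoferrin that brings iron into mitochondria, rose by 2.03 (SE 0.12). PPOX and FAM210B each rose by 1.52, the former an enzyme of late haem synthesis and the latter a mitochondrial protein of iron delivery to ferrochelatase. ALAD, the enzyme after ALAS2, rose by 1.27 at its brightest probe and gave 0.24 at another. ABCB10, a mitochondrial transporter of haem-making cells, rose by 0.98.

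The promoters of EPB42 and ALAS2 are shown because these 2 genes led the membrane and haem groups among the genes with a RefSeq entry. Each covers 250 bases before to 50 after the gene start in GRCh38.p14, EPB42 at chr15:43220969-43221268 and ALAS2 at chrX:55030928-55031227, both on the minus strand and written 5′ to 3′ along the gene. Capitals mark matches on either strand to AGATAA or TGATAA, the letters bound by GATA factors, and to CCNCNCCC, the letters bound by erythroid KLF factors, some of which overlap.
EPB42: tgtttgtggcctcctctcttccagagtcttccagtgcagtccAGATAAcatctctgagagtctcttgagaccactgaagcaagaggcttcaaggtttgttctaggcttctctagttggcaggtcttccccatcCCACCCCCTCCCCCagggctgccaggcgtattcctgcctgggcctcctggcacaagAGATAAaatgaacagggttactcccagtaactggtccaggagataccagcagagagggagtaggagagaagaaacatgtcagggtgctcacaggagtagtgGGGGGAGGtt
ALAS2: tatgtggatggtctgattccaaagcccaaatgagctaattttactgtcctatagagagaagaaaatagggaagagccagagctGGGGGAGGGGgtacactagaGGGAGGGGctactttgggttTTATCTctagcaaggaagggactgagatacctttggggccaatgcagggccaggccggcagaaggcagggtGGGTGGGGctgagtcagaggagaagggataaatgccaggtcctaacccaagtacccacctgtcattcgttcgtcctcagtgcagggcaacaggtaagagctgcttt
The EPB42 window held 2 GATA matches and 4 KLF matches, and the ALAS2 window 1 and 4. GATA letters occurred in 7 of the 14 membrane genes with an entry, where 8.18% of the tested genes with an entry and 16.6% of all promoters held them. The other erythroid groups had lower shares. The letters were in 2 of 12 haem genes and 0 of 11 iron genes with an entry. They were in 18.8% of the erythroid factors and 22.2% of the other erythroid proteins. Of the globin group only 1 gene had an entry, and it held them. KLF letters occurred in 85.7% of those membrane genes, 83.3% of the haem genes, 73.2% of the tested genes and 55.1% of all promoters. A match is a run of letters and not a measured binding site.

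Among the globins, embryonic epsilon rose, and zeta, gamma and alpha globin did not pass the test. Of 10 measured genes of this group, which includes the alpha globin chaperone, 5 rose and 0 fell. HBE1, epsilon globin, was at 11.55, 11.52 and 11.49 at 8 h and at 13.03, 12.90 and 13.08 at 24 h, a change of 1.48 (SE 0.10, adjusted p = 9.7e-07). These 2 sets of values did not overlap, as for 49.4% of all genes. AHSP, the chaperone that keeps free alpha globin in solution, rose by 2.03 (SE 0.29), with array C of the 8 h group at 10.30 and arrays A and B at 11.18 and 11.04. HBQ1, HBB and HBD, theta, beta and delta globin, rose by 0.62, 0.61 and 0.42. HBZ, zeta globin, was at 14.36, 14.35 and 14.07 at 8 h and at 14.15, 14.12 and 14.13 at 24 h (-0.12, adjusted p = 0.69). HBG1, gamma globin, gave 0.07 (adjusted p = 0.54), and HBA1 and HBA2, alpha globin, gave -0.08 and -0.01 (adjusted p = 0.59 and 0.96). The last 3 have near-identical copies that probes may not separate. Their 8 h levels of 14.27 to 14.45 lay close to the highest level of any gene on the 6 arrays, 14.8.

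Of the other erythroid proteins, 17 of 22 measured rose and 0 fell (13 rose without array C of the 8 h group), with a median of 0.66. CA1, the abundant carbonic anhydrase of red cells, was at 8.36, 8.14 and 7.31 at 8 h and at 12.24, 12.22 and 12.14 at 24 h. It was 19.3-fold higher (4.27, SE 0.29, adjusted p = 1.2e-06), with array C again the lowest of the 8 h values. CA2, its faster relative, rose by 0.54 (SE 0.18, adjusted p = 0.036), a call lost under several settings, among them that with array C of the 8 h group left out. SELENBP1, a selenium-binding protein of red cells, rose by 1.82, and BPGM, which makes the regulator of haemoglobin's oxygen affinity, by 1.24. HEMGN, a nuclear protein of erythroblasts, rose by 1.17. EPOR, the erythropoietin receptor, went from 9.41, 9.37 and 9.14 to 9.97, 10.27 and 9.90, a rise of 0.74. SLC2A1, the glucose transporter of human red cells, rose by 0.89.

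Iron uptake showed 6 of 12 measured genes higher and 0 lower. TFR2, the second transferrin receptor, rose by 1.25, and SLC11A2, the iron transporter DMT1, by 1.21. TFRC, the main transferrin receptor, went from 13.74, 13.71 and 13.69 at 8 h to 14.18, 14.12 and 14.14 at 24 h, a rise of 0.43 (SE 0.09). STEAP3, the ferrireductase of the endosome, rose by 0.64.

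Among the regulators of red cell genes, partners of GATA1 rose and GATA1 and KLF1 did not pass the test. Of 19 erythroid transcription factors 10 rose (52.6%) and 2 fell (10.5%), where 17.5% and 18.3% of all genes did. The median was 0.29. GATA1 was at 9.28, 9.34 and 9.46 at 8 h and at 9.60, 9.68 and 9.49 at 24 h (0.23, adjusted p = 0.14), and KLF1 gave 0.08 (adjusted p = 0.58). ZFPM1, the GATA1 partner FOG1, rose by 1.00 (SE 0.14). The partners TAL1 and LMO2 rose by 0.68 and 0.71. FOXO3, a factor of late erythroid and quiescence genes, rose by 0.88, and KLF3, a repressor of the KLF family, by 0.91, with -0.21 at its other probe. The 2 that fell were GATA2, the GATA factor of progenitors, by 0.96 (1.95-fold, SE 0.19, adjusted p = 0.002), and MYB, a progenitor factor, by 0.51 (1.42-fold, SE 0.12). GATA2 had been at 6.79 at 4 h and 8.77 in DMSO, and its 24 h values of 6.14, 5.99 and 5.45 all lay below the means of the other 3 groups.

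**Figure D2:**
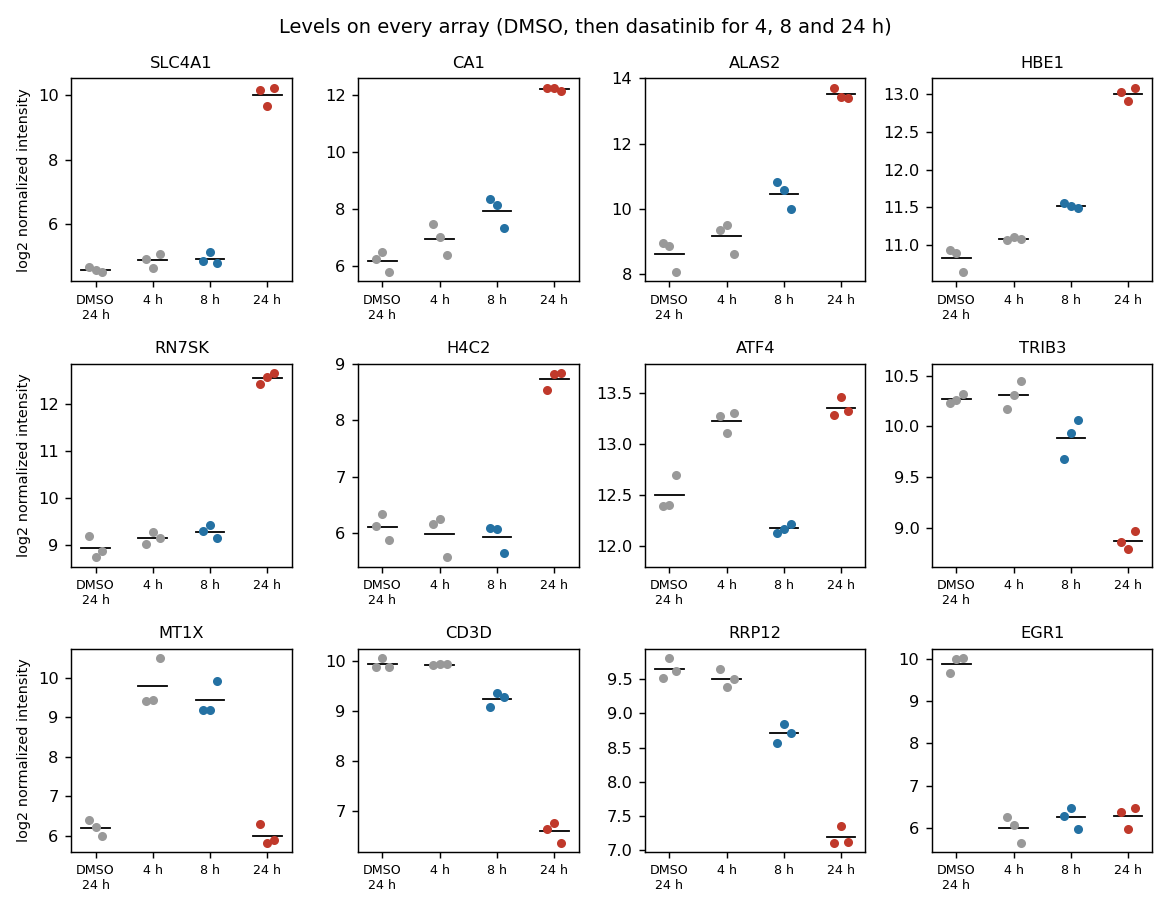
Level of 12 genes (y axis, log2 normalized intensity) on each of the 12 arrays, grouped as DMSO and 4 h, 8 h and 24 h of dasatinib. Each point is 1 array and each bar the mean of 3, with 8 h in blue and 24 h in red. SLC4A1, RN7SK and H4C2 were level until 8 h and high at 24 h, MT1X was high at 4 h and 8 h and at 5.82 to 6.29 at 24 h, and EGR1 was high in DMSO alone.

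Small noncoding RNAs made up many of the largest rises. Of 49 measured genes of small nuclear, small nucleolar, Cajal body and RNA polymerase III RNAs and their host genes, 31 rose and 2 fell, with a median of 0.76. At 2-fold 21 rose, where 3.18% of all genes did. The list mean was 7.61, 7.71 and 7.50 at 8 h and 8.76, 8.83 and 8.85 at 24 h, and 7.55 to 7.78 at 4 h. The list median of the change from 4 h to 8 h was -0.04. Most of these RNAs carry no poly(A) tail in their mature form, and the labelling kit named in the labels starts from poly(A) tails. Their levels are therefore those of labelled RNA, and the total amount of each RNA was not measured.

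RNA5S9, a gene of 5S ribosomal RNA, was at 9.83, 9.61 and 9.39 at 8 h and at 13.46, 13.59 and 13.45 at 24 h, 14.8-fold higher (3.89, SE 0.13, adjusted p = 7.1e-09). RN7SK, the RNA that holds the elongation factor P-TEFb inactive, was at 9.29, 9.42 and 9.15 and then at 12.42, 12.56 and 12.66 (3.27, SE 0.13), and its other probe gave 4.53. The DMSO means of RNA5S9 and RN7SK, 9.58 and 8.93, were no higher than those at 8 h. The U1 small nuclear RNA genes RNU1-3, RNU1-1, RNVU1-7 and RNVU1-18 rose by 3.78, 3.23, 3.71 and 3.49, and RNU4-2, a U4 gene, by 3.63. SNORD3A and SNORD3C, genes of the U3 RNA that guides the first cuts of ribosomal RNA, rose by 3.25 and 3.51. U1, U4 and U3 genes are near-identical copies, so these probes may read the same RNA.

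Classes within the list differed in their values. The 6 members RMRP, RPPH1, RNU6ATAC, RNU6-1, RN7SL1 and SNHG1 are named after their values were seen. RMRP and RPPH1, the RNAs of the RNase MRP and RNase P enzymes, rose by 2.28 and 1.63, and RNU6ATAC, of the minor spliceosome, by 2.71. RNU6-1, a U6 gene, rose by 0.69 from a level of 12.78 to 12.82. RN7SL1, the RNA of the signal recognition particle, was at 14.36, 14.46 and 14.41 at 8 h and at 14.38, 14.26 and 14.27 at 24 h (-0.11, adjusted p = 0.42). The host gene SNHG1 gave 0.34 (adjusted p = 0.073), and was called under 4 other settings. The members that fell were SNORD16, by 0.68 (1.60-fold), and SCARNA10, by 0.57 (1.48-fold). Among proteins that work with these RNAs, of 58 measured spliceosome protein genes 21 fell (36.2%) and 5 rose (8.62%), with a median of -0.18. The shares of all genes were 18.3% and 17.5%. HNRNPA1, a regulator of splice site choice, fell by 1.10 (2.14-fold, SE 0.13), with -0.38 at its other probe. PRPF19 of the catalytic complex fell by 0.78 and SNRPA, a U1 protein, by 0.60. Without array C of the 8 h group 12 fell and 1 rose, and under median scaling 3 fell and 3 rose.

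Replication-dependent histones, whose messages also lack a poly(A) tail as a rule, rose in part. Of 42 measured genes, which include the histone mRNA binder SLBP, 22 rose and 2 fell, with a median of 0.50 (0.48 with members below background at 8 h set to their bound). H4C2 was at 6.09, 6.07 and 5.65 at 8 h and at 8.55, 8.83 and 8.85 at 24 h (2.80, SE 0.19, adjusted p = 1.1e-06), and its DMSO mean was 6.11. H4C1 was at least 3.19-fold higher, from below background. H2BC21 and H2BC15 rose by 1.24 and 1.26, H2AC17 by 1.16 and H3C13 by 1.14. The 2 that fell were H2BC11, by 0.40 (1.32-fold), and H4C8, by 0.37 (1.30-fold). Histone genes are close copies, and probes may not separate them. The list mean at 8 h, 8.28 to 8.34, was close to that at 4 h, 8.36 to 8.43, and every 24 h array read higher, from 8.83 to 8.96.

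**Figure D3:**
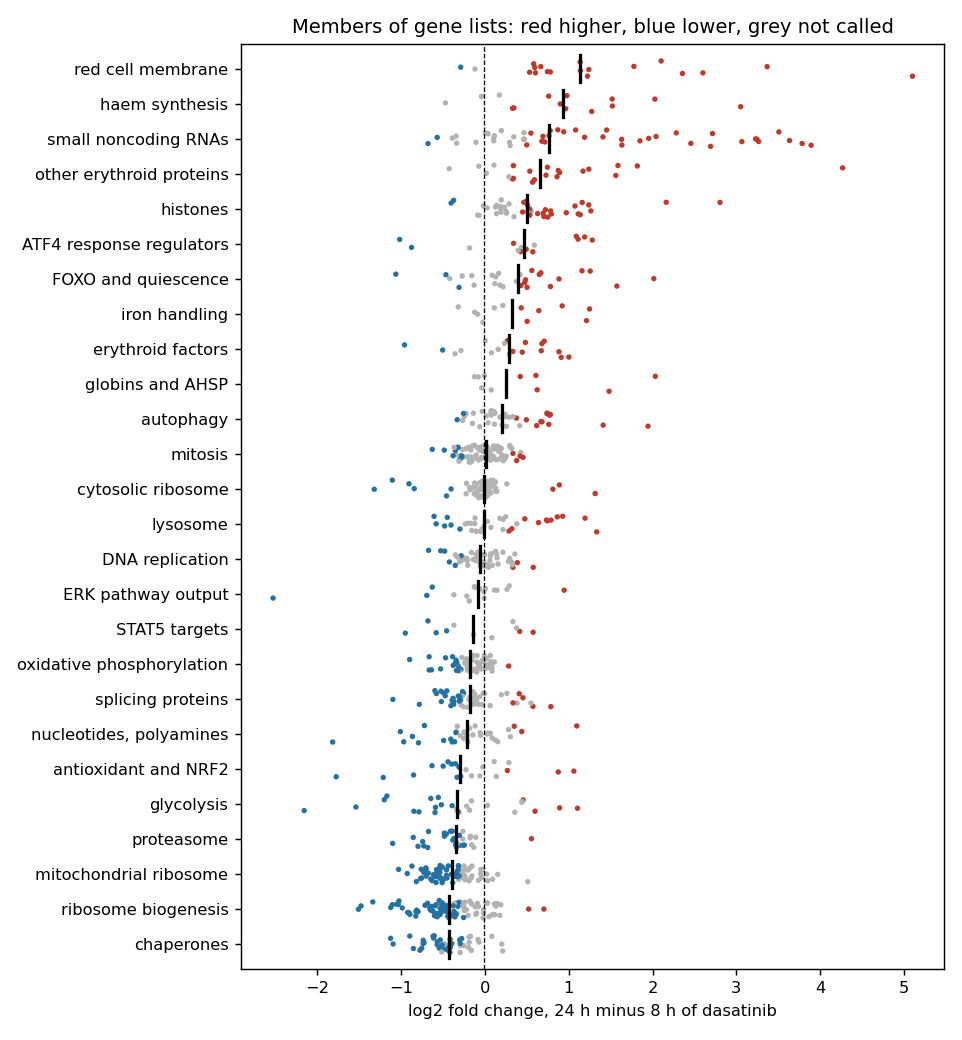
Change of every measured member of 26 gene lists (x axis, log2 fold change at 24 h relative to 8 h), 1 point per gene and 1 row per list. Red points were called higher, blue points lower and grey points not called, the black bar is the list median and the dashed line the median of all 10208 genes, -0.01. The erythroid groups, small RNAs and histones sit to the right, and chaperones, ribosome biogenesis, the mitochondrial ribosome and the proteasome to the left.

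Of 28 measured genes of quiescence and of FOXO activity, 13 rose and 3 fell, where 17.5% and 18.3% of all genes did, with a median of 0.40 (0.26 with genes below background entered at their bounds). YPEL3, a growth arrest gene, was at 7.23, 7.25 and 7.25 at 8 h and at 9.26, 9.26 and 9.24 at 24 h, a change of 2.01 (SE 0.08, adjusted p = 1.4e-08). The arrays of a time differed by 0.02 at most, far less than the times did. PIK3IP1, an inhibitor of PI3 kinase, rose by 1.57 (SE 0.18), and YPEL5 by 1.26. TXNIP, the thioredoxin-binding inhibitor of glucose uptake, went from 12.49, 12.19 and 12.01 to 13.40, 13.41 and 13.36 (1.16, SE 0.12). Against the list, TOB1, an antiproliferative gene, fell by 1.06 (2.09-fold, SE 0.16), KLF2 by 0.47 and SOD2, the mitochondrial superoxide dismutase, by 0.31. The calls of KLF2 and SOD2 were lost under several settings. The CDK inhibitors differed. CDKN1A, p21, fell by 0.68 (1.60-fold, SE 0.14), CDKN1B, p27, gave 0.16 (adjusted p = 0.33), and CDKN1C, p57, was at 9.22, 9.36 and 9.38 at 8 h and at 9.12, 9.56 and 9.50 at 24 h (0.07, adjusted p = 0.83). In DMSO CDKN1C was at 5.52, far below both times.

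Of 37 measured autophagy and mitophagy genes 12 rose and 2 fell, where 17.5% and 18.3% of all genes did, with a median of 0.20. OPTN, optineurin, a receptor that brings damaged mitochondria to autophagosomes, was at 5.94, 5.70 and 5.52 at 8 h and at 7.85, 7.68 and 7.46 at 24 h (1.95, SE 0.16, adjusted p = 3.7e-06). The groups were more than 1.5 apart at their nearest arrays. TP53INP1, which binds the autophagosome proteins, rose by 1.41. BNIP3L, the mitophagy receptor of maturing red cells, rose by 0.74 and PINK1, the kinase that marks damaged mitochondria, by 0.77. SQSTM1, the p62 receptor, fell by 0.33 (1.26-fold), and ULK1, the kinase that starts autophagy, gave 0.24 (adjusted p = 0.24). Of 37 lysosomal genes 11 rose and 6 fell, the latter 16.2% and close to the share of all genes, with a median of -0.01 that turned to 0.10 under median scaling. The protease TPP1 rose by 1.33, cathepsin B, CTSB, by 1.19 and the saposin precursor PSAP by 0.93, while the galactosidase GLA fell by 0.61 (1.52-fold) and cathepsin C, CTSC, by 0.58. Under median scaling 0 lysosomal genes were lower.

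ATF4 is the factor that amino acid shortage and other stresses induce through slowed translation. The list median for the regulators was -0.86 from 4 h to 8 h and 0.46 from 8 h to 24 h, 2 comparisons that share the 8 h arrays. Of 14 measured regulators 8 rose (57.1%) and 2 fell (14.3%), where 17.5% and 18.3% of all genes did. ATF4 itself was at 12.13, 12.17 and 12.22 at 8 h and at 13.29, 13.46 and 13.33 at 24 h (1.19, SE 0.11, adjusted p = 9.1e-06), with 13.23 at 4 h and 12.50 in DMSO. Its 2 other probes gave 0.27 and 1.56. The 24 h values thus stood just above the 4 h mean. STC2, a secreted glycoprotein of stress responses, rose by 1.28 and had a mean of 6.89 at 4 h. CEBPG and DDIT3, partners of ATF4, rose by 1.11 and 1.09. TRIB3, a target that feeds back on ATF4, was at 9.68, 9.93 and 10.06 at 8 h and at 8.86, 8.79 and 8.97 at 24 h, and fell by 1.02 (2.03-fold, SE 0.12). ATF5 fell by 0.88 (1.84-fold), so that these 2 targets and ATF4 moved in opposite directions.

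Of 14 measured enzymes of amino acid synthesis, 6 fell (42.9%) and 1 rose (7.14%), where 18.3% and 17.5% of all genes did. The median was -0.20, and 3 fell under median scaling. PSAT1, of serine synthesis, went from 10.61, 10.69 and 10.80 to 9.53, 9.53 and 9.37, and fell by 1.22 (2.33-fold, SE 0.09, adjusted p = 2.0e-06). Its DMSO mean was 9.65. CTH, of cysteine synthesis, fell by 1.01 and PHGDH, the first enzyme of serine synthesis, by 0.61. MTHFD2, of mitochondrial one-carbon metabolism, was the member that rose, by 0.69 (SE 0.11). Of 13 amino acid transporters 6 rose (46.2%) and 3 fell (23.1%), the latter close to the 18.3% of all genes. SLC6A9, the glycine transporter that supplies haem synthesis in erythroid cells, was at 6.95, 6.76 and 6.74 at 8 h and at 8.88, 8.74 and 8.76 at 24 h (1.98, SE 0.17). SLC25A22, a mitochondrial glutamate carrier, was at 7.76, 7.71 and 7.90 and then at 6.15, 6.13 and 6.09, and fell by 1.66 (3.17-fold, SE 0.10). Both genes showed no overlap between the times, as did 49.4% of all genes. SLC1A5, a glutamine transporter, rose by 0.72, while SLC7A6 and SLC38A5 fell by 0.69 and 0.66.

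Factors that build ribosomes were lower at 24 h. Of 95 measured genes of ribosomal RNA processing and ribosome assembly 59 fell and 2 rose, with a median of -0.43, where 18.3% of all genes were lower. Under median scaling 21 fell and the median was -0.31. The list median was -0.38 from 4 h to 8 h, a comparison that shares the 8 h arrays. RRP12, which helps to export ribosomal subunits, was at 8.57, 8.85 and 8.72 at 8 h and at 7.12, 7.36 and 7.13 at 24 h, and fell by 1.51 (2.85-fold, SE 0.12, adjusted p = 3.6e-06). Its means at 4 h and in DMSO were 9.51 and 9.65, so each group was lower than the one before. EXOSC5, an exosome subunit, fell by 1.48, NOC2L by 1.34, EMG1, a methyltransferase of ribosomal RNA, by 1.13 and PES1, of the large subunit, by 1.11. The 2 that rose were WDR74, by 0.70, and DDX51, by 0.52 with -0.30 at its other probe. Of 33 genes of RNA polymerases I and III with their factors, 5 fell and 3 rose. These are 15.2% and 9.09%, both under the shares of all genes, 18.3% and 17.5%. Under median scaling 3 fell, and 1 rose when array C of the 8 h group was left out. POLR3G fell by 0.94 and TAF1D, of the polymerase I initiation factor, rose by 0.80.

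MYC, the factor that drives ribosome synthesis, was not called. It was at 11.08, 10.92 and 11.19 at 8 h and at 11.54, 11.29 and 11.35 at 24 h (0.33, adjusted p = 0.07), against 12.43 in DMSO, and was called higher under 5 other settings. MXD4, a MAX partner that opposes MYC, was at 10.15, 10.03 and 10.09 and then at 11.32, 11.35 and 11.41, a rise of 1.27 (SE 0.14). MXD3 of the same family rose by 0.58. Of 9 measured genes of the MYC network these 2 rose (22.2%) and 0 fell, the former close to the 17.5% of all genes. SRM, spermidine synthase and a known MYC target, went from 10.62, 10.60 and 10.71 to 8.75, 9.09 and 8.65 and fell by 1.82 (3.53-fold, SE 0.13, adjusted p = 1.8e-06). No 24 h value of SRM came within 1 log2 unit of an 8 h value. Its RefSeq promoter, at chr1:11059969-11060268 on the minus strand of GRCh38.p14, is shown as an example of the letters CACGTG, the E-box of MYC and MAX, which are in capitals.
SRM: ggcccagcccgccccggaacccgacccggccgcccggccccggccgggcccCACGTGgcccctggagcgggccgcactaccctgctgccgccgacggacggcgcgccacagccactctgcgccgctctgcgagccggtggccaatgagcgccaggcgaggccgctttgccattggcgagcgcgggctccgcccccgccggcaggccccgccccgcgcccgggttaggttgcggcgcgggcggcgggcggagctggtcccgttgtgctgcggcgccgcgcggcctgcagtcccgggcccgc
The SRM window held 1 E-box. Among the 77 genes of ribosomal RNA processing with an entry, 36.4% held these letters, against 10.8% of the tested genes and 7.43% of all promoters. The letters CCGGAAG of ETS factors occurred in 45.5% of them, against 20.5% and 10.7%. Other lists held the ETS letters as well, with 53.6% of RNA polymerase I and III genes, 42.3% of spliceosome genes and 34.5% of cytosolic ribosomal proteins. Of the mitochondrial ribosome genes 40.9% held the ETS letters and 9.09% the E-box. Both are counts of letters, searched on both strands.

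Mitochondrial ribosomal proteins were lower at 24 h. Of 74 measured, 47 fell and 0 rose, with a median of -0.39, while the list median from 4 h to 8 h was -0.02. The list mean was 10.69, 10.74 and 10.75 at 8 h and 10.31, 10.31 and 10.36 at 24 h, and 10.77 to 10.78 at 4 h. MRPL4 fell by 1.03 (2.04-fold, SE 0.11), with -0.95 at its other probe, MRPS26 by 0.93 and MRPS34 by 0.87. Under median scaling 18 fell and 1 rose, with a median of -0.34. Among 68 nuclear-encoded subunits of oxidative phosphorylation 15 fell and 1 rose, with a median of -0.18. The share that fell, 22.1%, was close to the 18.3% of all genes. ATP5MC3, of the ATP synthase ring, fell by 0.90 and UQCR11 of complex III by 0.67. NDUFA13 of complex I was the member that rose, by 0.28. Under median scaling 2 fell.

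Of 68 measured cytosolic ribosomal proteins 6 fell and 3 rose, both under the shares of all genes, with a median of -0.01 that turned to 0.06 under median scaling. RPS7 went from 10.88, 11.05 and 10.99 to 9.65, 9.55 and 9.76 and fell by 1.32 (2.50-fold), with -1.58 at its other probe, and RPL29 fell by 1.11. RPL28 was at 8.15, 8.44 and 7.93 at 8 h and at 9.51, 9.52 and 9.43 at 24 h, a rise of 1.32 (SE 0.15), and RPL37 and RPL22 rose by 0.89 and 0.81. RPL34 fell by 0.84 but gave 0.31 at its other probe. Ribosomal protein genes have many processed copies in the genome, so single probes may read more than 1 of them. Of 44 translation factors 15 fell (34.1%) and 8 rose (18.2%), the latter close to the 17.5% of all genes. EIF6, which keeps ribosomal subunits apart, fell by 0.82, and EIF4G1, the scaffold of cap-dependent initiation, by 0.81. The 2 largest rises were in inhibitors, PDCD4, which blocks the helicase EIF4A, by 1.13 (SE 0.13) and EEF2K, the kinase that stops elongation, by 0.93. Of 18 cytosolic aminoacyl-tRNA synthetases 7 fell (38.9%) and 1 rose (5.56%), where 18.3% and 17.5% of all genes did. WARS1 fell by 0.71 and FARSA by 0.64. Under median scaling 3 translation factors fell and 4 rose, and 2 synthetases fell and 0 rose.

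**Figure D4:**
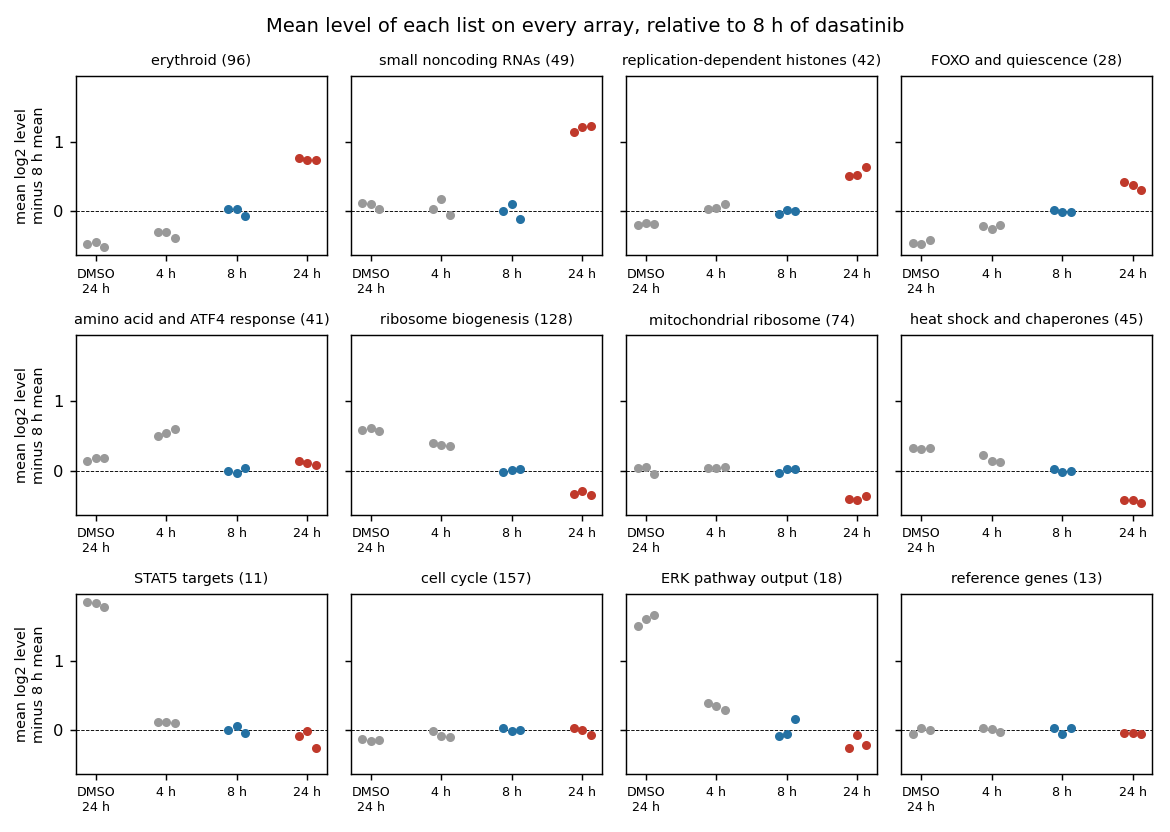
Mean level of 12 gene lists on each of the 12 arrays (y axis, mean log2 level minus the mean of the 3 arrays at 8 h), with the number of measured genes in each title. Each point is 1 array, 8 h in blue and 24 h in red. The STAT5 and ERK lists stood far above 0 in DMSO alone, small RNAs and the mitochondrial ribosome moved after 8 h, and ribosome biogenesis and chaperones went down group by group.

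Chaperones and the proteasome fell together with the machinery of growth. Of 45 measured chaperone genes 30 fell and 0 rose, with a median of -0.43. FKBP4, a partner of HSP90, was at 9.60, 9.40 and 9.61 at 8 h and at 8.70, 8.35 and 8.28 at 24 h, and fell by 1.10 (2.14-fold, SE 0.12). MANF, of the endoplasmic reticulum, went from 10.64, 11.06 and 10.84 to 9.82, 9.62 and 9.70 and fell by 1.13 (2.18-fold, SE 0.11). Both sets lay apart, as those of 49.4% of all genes did. HSPA4L and the mitochondrial HSPA9 fell by 0.90 and 0.78. Under median scaling 10 fell, with a median of -0.36. Of 31 proteasome subunits 21 fell and 1 rose, with a median of -0.35. PSMD8 fell by 1.10 (2.15-fold), PSMB4 by 0.86 and PSMD3 by 0.80, while the activator PSME1 rose by 0.55 (SE 0.09). Without array C of the 8 h group 13 fell, and under median scaling 7 did.

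In glycolysis the muscle and tumour form of pyruvate kinase fell and the red cell form rose. PKM was at 7.97, 7.71 and 8.43 at 8 h and at 5.89, 6.11 and 5.64 at 24 h, and fell by 2.16 (4.46-fold, SE 0.17, adjusted p = 3.1e-06), with -1.74 and -1.26 at its 2 other probes. PKLR, the isoenzyme of liver and red cells, went from 9.85, 9.91 and 9.70 to 10.95, 10.88 and 10.94 and rose by 1.10 (SE 0.09, adjusted p = 3.9e-06), with 0.17 to 1.30 at its 4 other probes. For both genes the times did not overlap, as for 49.4% of all genes. For PKM, named among the largest falls, this was a condition. Of 26 measured genes 13 fell (50%) and 4 rose (15.4%), where 18.3% and 17.5% of all genes did. The median was -0.33, and under median scaling 8 fell. PGAM1 fell by 1.54 and LDHA, lactate dehydrogenase, by 1.17. SLC2A3, a glucose transporter, fell by 1.20 (2.30-fold, SE 0.11) and had been at 12.02 in DMSO and 9.06 at 4 h. HK2, hexokinase, fell by 0.85, with -1.62 at its other probe.

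Of 35 genes of nucleotide and polyamine synthesis 11 fell (31.4%) and 3 rose (8.57%), where 18.3% and 17.5% of all genes did. The median was -0.22, and under median scaling 5 fell and 1 rose. Within polyamines, SRM and ODC1, which makes putrescine, fell by 1.82 and 0.79, and SAT1, which starts polyamine breakdown, was at 9.88, 9.71 and 9.84 at 8 h and at 10.86, 10.91 and 10.94 at 24 h (1.09, SE 0.09). Synthesis and breakdown genes thus moved in opposite directions. In purine synthesis IMPDH1 fell by 1.01, with -0.33 and -0.01 at its 2 other probes, and PFAS by 0.87. Of 27 sterol and fatty acid genes 8 fell (29.6%) and 3 rose (11.1%), and 2 fell under median scaling. FASN, fatty acid synthase, fell by 0.79 and ELOVL6, an elongase, rose by 0.62. Of 22 antioxidant and NRF2-linked genes 12 fell (54.55%) and 3 rose (13.6%), with a median of -0.30, and 3 fell under median scaling. NQO1, a quinone reductase, fell by 1.78 (3.42-fold, SE 0.14) at its brightest probe and gave -0.05 at the other, while NQO2 fell by 1.21. CAT, catalase, which red cells hold in plenty, rose by 0.87 and GLRX, glutaredoxin, by 1.06.

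The largest fall of all was in a metallothionein. MT1X, a small protein that binds zinc, was at 9.18, 9.18 and 9.93 at 8 h and at 6.29, 5.82 and 5.89 at 24 h, and fell by 3.43 (10.8-fold, SE 0.28, adjusted p = 4.4e-06). Its means were 9.79 at 4 h and 6.20 in DMSO, so the 24 h arrays lay around the DMSO mean and far below both earlier times. The RefSeq promoter of MT1X, at chr16:56682220-56682519 on the plus strand of GRCh38.p14, is shown with matches to TGCNCNC, the metal response element of the zinc sensor MTF1, in capitals.
MT1X: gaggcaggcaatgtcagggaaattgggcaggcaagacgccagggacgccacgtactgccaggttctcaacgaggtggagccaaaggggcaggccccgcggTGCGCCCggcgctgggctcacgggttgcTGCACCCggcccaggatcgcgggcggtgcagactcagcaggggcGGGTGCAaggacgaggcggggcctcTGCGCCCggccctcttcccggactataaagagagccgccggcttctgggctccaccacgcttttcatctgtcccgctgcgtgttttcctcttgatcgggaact
It held 4 matches. These letters are common, found in 63.3% of the tested genes with an entry and 55.2% of all promoters. Of 21 measured metallothioneins and zinc transporters 10 fell (47.6%) and 5 rose (23.8%), where 18.3% and 17.5% of all genes did. The median was -0.27. MT1E fell by 1.31 (2.48-fold, SE 0.20) and had also been higher at 4 h, 9.35, than in DMSO, 8.34. Metallothionein genes are near-identical, and MT1B, which rose by 0.99, may share signal with other members at its probe. Among transporters SLC39A14, a zinc and iron importer, fell by 1.27 and SLC39A8 of the same family rose by 1.87 (3.64-fold, SE 0.12), with 1.72 at its other probe. SLC30A1, the zinc exporter that MTF1 induces, gave -0.27 (adjusted p = 0.15) and stood above its DMSO mean of 7.98 on every array at 8 h and 24 h.

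Few genes of the ERK pathway list were called between 8 h and 24 h. Of 18 measured 3 fell and 1 rose, or 16.7% and 5.56%, where 18.3% and 17.5% of all genes did. Their median change was -0.09. EGR1, an immediate early factor, was at 6.29, 6.48 and 5.98 at 8 h and at 6.38, 5.98 and 6.47 at 24 h (0.03, adjusted p = 0.92), against 9.88 in DMSO. SPRY2, a feedback inhibitor of the pathway, gave -0.11 (adjusted p = 0.66). DUSP6, another, was below background at 8 h and was not called (adjusted p = 0.33). VGF, a secreted peptide precursor, was the exception in size. It went from 8.66, 8.59 and 9.33 to 6.18, 6.61 and 6.21, and fell by 2.53 (5.77-fold, SE 0.23, adjusted p = 1.1e-05). Of 17 immediate early genes 6 rose (35.3%) and 0 fell. Those that rose included KLF10, at least 2.09-fold higher, JUNB, by 0.88, and the phosphatase DUSP1, by 0.78.

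STAT5 targets and feedback inhibitors divided, with 4 of 11 measured lower (36.4%) and 2 higher (18.2%), where 18.3% and 17.5% of all genes were. Under median scaling 1 was lower. PIM2, a survival kinase, fell by 0.95 (1.93-fold, SE 0.09), and SOCS2, a suppressor of cytokine signalling, by 0.58. PIM1 was at 8.71, 8.73 and 8.41 at 8 h and at 9.24, 9.09 and 9.24 at 24 h and rose by 0.57 (SE 0.14), against 10.92 in DMSO. CISH was below background at both times. ID2, an inhibitor of helix-loop-helix factors, rose by 1.04 (SE 0.18), with 1.88 at its other probe, and ID1 fell by 0.46 (1.37-fold, SE 0.13). Of the drug's target kinases, 19 measured with BCR, LYN fell by 0.56 and DDR1 by 0.54, and 0 rose. The share that fell, 10.5%, was under the 18.3% of all genes. The calls of LYN and DDR1 were lost under median scaling. ABL1 was at 10.67, 10.33 and 10.54 at 8 h and at 10.67, 10.56 and 10.46 at 24 h (0.06, adjusted p = 0.72). Of 22 cytokine receptor and JAK-STAT genes 8 rose and 1 fell, with STAT6, IL6ST and STAT5B higher by 0.77, 0.76 and 0.71. Under median scaling 5 rose, as many as with array C of the 8 h group left out.

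Cell cycle genes changed little. Of 157 measured 17 fell and 9 rose, or 10.8% and 5.73%, both under the shares of all genes. MKI67, TOP2A and MCM2, markers of proliferation, gave 0.43, 0.25 and 0.13 (adjusted p = 0.32, 0.18 and 0.35). Of 83 mitosis genes 10 fell (12.05%) and 4 rose (4.82%), and of 55 DNA replication genes 6 fell and 3 rose. PLK1, a mitotic kinase, was among those that fell, by 0.63 (1.55-fold, SE 0.11). LIG1, the ligase of DNA replication, rose by 0.58, against the majority of its group. CCND3, the D cyclin of erythroid cells, went from 12.65, 12.58 and 12.56 to 13.44, 13.29 and 13.47, a rise of 0.81 (SE 0.09), while CCND2 gave -0.14 (adjusted p = 0.53). Under median scaling 0 cell cycle genes were lower and 2 higher, and the median of the 55 DNA replication genes turned from -0.06 to 0.025. The letters TTTGAA of the cell cycle homology region occurred in 68.1% of the 72 mitosis genes with a promoter entry, against 9.88% of the tested genes.

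Of 25 measured genes of cell death 7 fell and 3 rose, where 18.3% and 17.5% of all genes did. Under median scaling 2 fell and 2 rose. BAK1, a pore-forming killer of the BCL2 family, fell by 0.81, and the death receptor gene TNFRSF10A and its adaptor FADD fell by 0.79 and 0.62. CFLAR, the inhibitor of caspase 8, was at 6.83, 6.88 and 6.95 at 8 h and at 7.92, 7.79 and 8.12 at 24 h (1.06, SE 0.16). PMAIP1, a pro-apoptotic member, rose by 0.82. BCL2L11, BIM, fell by 0.38 (1.30-fold, SE 0.12, adjusted p = 0.028), with -0.31 and 0.11 at its 2 other probes, and BCL2L1, the erythroid survival factor BCL-XL, rose by 0.41 with overlapping arrays. Both of these calls were lost under several settings. MCL1 gave -0.22 (adjusted p = 0.19). ULBP1, a ligand of natural killer cells, rose 2.82-fold (adjusted p = 1.8e-05) and BAG6 by 0.39, the latter lost under median scaling, among 7 such ligands measured. Of 20 interferon-stimulated genes 4 rose and 3 fell, near the shares of all genes (17.5% and 18.3%), with IFI6 higher by 1.14 and BST2 lower by 0.76.

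Several genes best known from other tissues were lower at 24 h. CD3D, a subunit of the T cell receptor complex, was at 9.08, 9.36 and 9.27 at 8 h and at 6.64, 6.77 and 6.37 at 24 h, and fell by 2.65 (6.27-fold, SE 0.12, adjusted p = 3.5e-08), with -2.78 at its other probe. Its means at 4 h and in DMSO were 9.93 and 9.94. It was the 1 gene of 17 lymphoid markers that was measured. COL1A2, a collagen chain, went from 9.57, 9.79 and 9.85 to 7.93, 7.80 and 7.78 and fell by 1.90 (3.74-fold, SE 0.10). The 5 measured of 16 fibroblast and epithelial markers fell, among them MUC1 2.83-fold and EPCAM 1.60-fold, and 3 of them did under median scaling. LYZ, lysozyme, fell by 1.46, the 1 of 5 measured granulocyte and monocyte markers that was called. Of 8 measured platelet and megakaryocyte genes TUBB1, a beta tubulin of platelets, rose by 1.17, and F2RL3 fell by 0.72, and FLI1 was at least 1.08-fold lower and below background at 24 h.

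Several of the other large falls were in secreted peptides and surface or cytoskeletal proteins. NTS, neurotensin, was at least 3.64-fold lower and below background at 24 h. GAL, galanin, was at 11.45, 11.65 and 11.58 at 8 h and at 9.67, 9.68 and 9.82 at 24 h and fell by 1.84 (3.57-fold, SE 0.10). SCG3, a protein of secretory granules, fell by 1.99. FABP5, a fatty acid carrier, fell by 2.24 (4.71-fold, SE 0.17), and MARCKS, an actin regulator under the membrane, by 1.98. CLCA1, S100A11 and CD24 fell by 1.98, 1.87 and 1.85. AHNAK, a large scaffold protein, fell by 1.87 from 8 h levels of 8.70, 8.78 and 8.47, which were above its DMSO mean of 7.17. NECAB1, a calcium-binding protein, fell by 2.36 (SE 0.42), the least precise of the 15 largest falls. Of 37 genes of tubulins, lamins and related cytoskeleton 13 fell (35.1%) and 5 rose (13.5%), where 18.3% and 17.5% of all genes did. Under median scaling 7 fell, as many as when array C of the 8 h group was left out. TUBB3, the neuronal beta tubulin, fell by 1.63 (3.10-fold, SE 0.12) and KRT8, a keratin, by 1.00.

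Large rises outside the erythroid and small RNA lists included ESPN, an actin-bundling protein. It was at 5.82, 6.05 and 5.13 at 8 h and at 10.20, 10.62 and 10.21 at 24 h, 25.7-fold higher (4.68, SE 0.25, adjusted p = 1.8e-07). Its means were 5.21 at 4 h and 4.77 in DMSO. ALDH3B1, an aldehyde dehydrogenase, was below background at 8 h and at least 7.56-fold higher at 24 h. ANO1, a chloride channel, went from 6.24, 6.35 and 5.68 to 9.14, 9.31 and 9.25 (3.14, SE 0.15), with 2.33 and 2.65 at its 2 other probes. Arrays that did not overlap were a condition for a place among the largest rises, so this adds nothing for these 3 genes. Among 13 reference genes 2 rose and 2 fell, with a median of -0.05. These are 15.4% each, under the 17.5% and 18.3% of all genes. GAPDH and POLR2A fell by 0.39 and 0.49, and GUSB and TFRC rose by 0.29 and 0.43, and under median scaling 1 rose and 0 fell.

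Some calls of genes named above rest on the setting. Under median scaling, 2 lower calls were also lost among histones, 2 in the FOXO list, 2 among autophagy genes, 2 among amino acid transporters and 2 among interferon-stimulated genes. Of single genes, CDKN1A, CTSC, GLA, FADD, PHGDH, PLK1, MYB, SOCS2, FARSA, SNRPA, UQCR11, SLC7A6, SLC38A5, SNORD16, SCARNA10, SQSTM1, H2BC11, H4C8, GAPDH, POLR2A and HBD lost their call under that scaling. The calls of TAF1D, PMAIP1 and BAK1 were lost without single arrays, as were those of NDUFA13, DDX51, ID1 and GUSB, which were lost under other scalings too. FLI1 lost its call under median scaling, without background correction, with an offset of 50 and in the authors' value table, and F2RL3 in that table. KLF3 and RPL34 lost theirs when the probes of a gene were averaged. Leaving out array C of the 8 h group also moved small counts. The number that rose went from 5 to 3 among metallothioneins and zinc transporters, and from 2 to 1 each for ribosome assembly, STAT5 targets, natural killer ligands and reference genes. It went from 1 to 0 each for oxidative phosphorylation and tRNA synthetases. The number that fell went from 2 to 1 for autophagy genes, from 1 to 0 for cytokine receptor and JAK-STAT genes and from 0 to 1 in the MYC network.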

How the data were processed

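RNA was labelled and hybridised to Illumina HT-12 v4 arrays, per the labels. The deposited table holds, for each array, the authors' probe intensity without normalization and a detection p-value, and a second deposited table holds their normalized log2 values, used here as an alternative. How the authors made those values is not stated in the labels. Intensities were background-corrected and quantile-normalized with neqc of limma 3.58.1 in R 4.3.3 (offset 16), and log2 levels were fitted over all 12 arrays in 4 groups. Probes were kept where some group had a detection p under 0.05 on each of its 3 arrays. Of 47314 probes 17625 passed and 13397 of these had 1 gene symbol. The brightest passing probe stood for each of 10208 genes. A gene below background on all 3 arrays of a side has a bound only ("at least"), set against the lowest detected signal. The text names the 15 genes that rose most and the 15 that fell most among those called whose arrays did not overlap. Other genes were drawn from the 6 largest called members of each list and role, called members against its majority, and 56 fixed genes. Not all of these are named, and 6 small RNA members were named after their values were seen. The fit was tested on simulated data. Genes and lists were chosen with earlier results of these data known. Alternatives were other background and scaling settings, filters, probe rules, the authors' table, the 6 arrays alone, a replicate block and leaving out each array.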

Additional observations from a re-analysis of the deposited data

How the results depend on the processing

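Every named gene that was called kept its direction under all 16 alternatives. Of the named genes that were not called, HBA2, ABL1, CISH, HBG1, KLF1, CCND2, CDKN1B, EGR1 and CDKN1C changed sign under at least 1. The number of genes called varied with the setting. Against 325 higher and 164 lower at 2-fold, there were 104 and 43 without background correction, 197 and 84 with an offset of 50, and 71 and 24 in the authors' value table. Scaling to the median of all probes gave 570 lower genes against 1863, and 96 lower at 2-fold, and the median of the DNA replication list reversed there from -0.06 to 0.025. Other small medians turned as well, from -0.01 to 0.10 for lysosomal genes, -0.01 to 0.06 for the cytosolic ribosome, -0.04 to 0.06 for RNA polymerases I and III, -0.01 to 0.07 for the whole cell cycle list, -0.05 to 0.035 for megakaryocyte genes, -0.06 to 0.05 for ID and SMAD genes, -0.06 to 0.025 for target kinases and -0.12 to 0.06 for natural killer ligands. The cause was not tested. Other settings turned the medians of the mitosis, lysosomal, STAT5, reference, interferon, megakaryocyte and granulocyte lists. Sizes moved too, for 40 of 51 list medians under at least 1 setting by at least their SD among arrays. In the authors' value table the medians were 0.255 for small noncoding RNAs, 0.162 for histones, 0.081 for the FOXO list and 0.271 for ATF4 regulators. The main fit gave 0.764, 0.499, 0.396 and 0.463. The proteasome median was -0.358 there and -0.349 in the main fit. Scaling to the median of passing probes, chosen after seeing the data, gave 1445 higher and 2227 lower. Leaving out each array gave 1406 to 1567 genes higher and 1454 to 1607 lower, and 300 to 354 and 161 to 188 at 2-fold. Between the 8 h and 24 h groups, deviations of arrays of the same letter correlated at 0.0393, 0.0549 and 0.0718. Those of different letters correlated at -0.0553 to 0.00203. The same-letter values were thus small but the higher ones throughout. The main fit did not pair the letters, and the fit with a replicate block gave 1843 higher and 1904 lower, 325 and 164 at 2-fold. With 3 arrays a side, and genes near background compressed by the offset, small changes of dim genes could not be resolved.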

Other observations

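Of the probes that passed the detection filter, 4228 carried no single gene symbol in the platform annotation used here. In the limma fit, with adjustment over these 4228 probes alone, 497 were higher and 493 lower at 24 h than at 8 h. These are 23.4% in all, with 106 higher and 59 lower at 2-fold. The share is not directly comparable with the 35.7% of genes, which were adjusted separately. They entered no gene count.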
